A study of Mus musculus with 6 samples.

Results

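The 83 cytosolic ribosomal protein genes of the mouse were followed in cancer-associated fibroblasts (CAFs) that do or do not carry MHC class II on their surface. They were chosen by name alone, as genes annotated as protein coding whose symbol is Rpl or Rps with a number and, where present, a letter a, x, y or l and a digit, or is Rplp0, Rplp1, Rplp2 or Rpsa. The rule took 83 of the 55298 genes in the tables, of which 21836 are annotated as protein coding. It used no measured value, but it was set with earlier results of these data known. All 83 were above 0 in at least 1 library; 80 had a mean value of at least 100 over the 6 libraries, and 3 (Rpl3l, Rpl10l and Rpl39l) had a mean under 10. The cells came from tumours grown in the lungs of wild-type C57BL/6 mice over 8 weeks of age. The first group, apCAFs (libraries apCAFs1, apCAFs2 and apCAFs3), was sorted as large MHCII+ cells, and the second, nonapCAFs (libraries nonapCAFs4, nonapCAFs5 and nonapCAFs6), as large MHCII- cells of the same gate. Both groups shared the rest of the gate, which left out cells with CD45, CD31, EPCAM or mCherry and kept those with podoplanin and PDGFRA. Tumours were pooled, and the 2 populations were taken side by side in 3 separate experiments, but the labels do not say which libraries share an experiment, so p-values measure the spread between these libraries.

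The cytosolic ribosome consists of a large 60S and a small 40S subunit. Its core proteins, named Rpl for the large and Rps for the small subunit, are normally made in step with each other and with ribosomal RNA. The genes counted here also include paralogues, some of them with tissue-restricted use. Ribosomal protein mRNAs are among the most abundant of any growing cell, and their translation and supply follow growth signals that run through mTORC1 and MYC. Their abundance has also left mammalian genomes with many processed pseudogenes, intronless copies of the spliced mRNAs, whose sequence is often nearly that of the parent gene. Fibroblasts that make much extracellular matrix depend on this machinery for the synthesis of secreted protein.

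The deposited values are normalized, rounded counts per gene and summed to between 77960347 (nonapCAFs6) and 93330791 (apCAFs3) per library; the sequencing depth behind them is unknown. The MHC class II genes followed the labels: H2-Ab1, which encodes a class II beta chain, had 20116, 20316 and 40443 in apCAFs against 517, 515 and 386 in nonapCAFs, and Cd74, the class II invariant chain, had 57814, 59290 and 102314 in apCAFs against 928, 1108 and 604 in nonapCAFs. The fibroblast gene Pdgfra was at 17628 or more in each library, Ptprc (CD45) at 65 or less and Pecam1 (CD31) at 129 or less. Epcam, a surface protein of epithelial cells, was at 181, 209 and 21 in apCAFs against 13, 3 and 5 in nonapCAFs, a log2 fold change of 3.76 with an adjusted p of 0.130 (limma). Libraries did not stand at equal distances. The median absolute log2 difference over genes with a mean of at least 100 was 0.0947 between apCAFs1 and apCAFs2 and 0.0859 between nonapCAFs4 and nonapCAFs5, against 0.334 between apCAFs1 and apCAFs3 and 0.223 between apCAFs1 and nonapCAFs4, so apCAFs1 lay nearer to nonapCAFs4 than to apCAFs3. Results are therefore given with and without apCAFs3 where it matters.

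Most of the signal that carries ribosomal protein sequence was listed under pseudogenes, not under the genes. In all, 921 pseudogenes were assigned to 80 of the 83 genes, 302 by their name and 619 because their transcript shared at least 20 runs of 50 bases with the gene's transcript; 917 of them are annotated as processed. Their values summed to 3522530, 3753530 and 2950217 in the apCAFs libraries and to 4051209, 3743308 and 3583745 in the nonapCAFs libraries. The 83 genes themselves summed to 409058, 428712 and 322199 in apCAFs and to 475836, 452059 and 437207 in nonapCAFs. In each library the pseudogenes thus held between 8.20 and 9.16 times the value of the genes. Of the 80 genes with a mean of at least 100, 75 had a single pseudogene with a higher mean than the gene, and 62 held under 10% of the summed value of gene and pseudogenes, with a median over the genes of 4.41%. Rpl8 and Rplp2, whose 1 pseudogene each was weak, and Rpl41 were among the 4 genes that held over 50%.

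Rplp0, the scaffold protein of the ribosomal stalk, had 9165, 9500 and 6755 in apCAFs and 9845, 9419 and 8954 in nonapCAFs. Its pseudogene Gm8730 (chr8:102864845-102865798 in GRCm38) had 121923, 128969 and 103272 in apCAFs and 138440, 128535 and 125094 in nonapCAFs. Rps6, the 40S protein phosphorylated by S6 kinase, had 3473, 3442 and 2511 in apCAFs and 3778, 3270 and 3455 in nonapCAFs. Its pseudogene Rps6-ps4 (chr2:75191073-75191822) had 73255, 80396 and 57740 in apCAFs and 85528, 81505 and 79285 in nonapCAFs. In both pairs the pseudogene was more than an order of magnitude above the gene in every library, and the lowest value of either lay in apCAFs3. The stretches around an exon junction are shown because they are where a spliced mRNA and an intronless copy can be the same while the gene's own genomic sequence is interrupted. Each is 60 bases of the sense strand from GENCODE M21 transcripts on GRCm38, with the last 30 bases of one coding exon in lower case and the first 30 of the next exon, or the matching bases of the pseudogene, in capitals.
Rplp0: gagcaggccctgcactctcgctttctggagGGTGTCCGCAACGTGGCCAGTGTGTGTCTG
Gm8730: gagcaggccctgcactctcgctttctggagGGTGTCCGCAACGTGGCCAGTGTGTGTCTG
Rps6: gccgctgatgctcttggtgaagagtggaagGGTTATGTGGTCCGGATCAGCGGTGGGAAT
Rps6-ps4: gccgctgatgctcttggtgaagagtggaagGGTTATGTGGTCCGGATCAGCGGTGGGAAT
Rpl4: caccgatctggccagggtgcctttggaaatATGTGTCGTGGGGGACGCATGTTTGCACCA
Gm5835: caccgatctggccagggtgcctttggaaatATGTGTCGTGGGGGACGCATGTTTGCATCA
For each pair the coding junction with the fewest mismatches is shown, so the match seen here was favoured by that choice. The first and second pairs were identical over the 60 bases, and the third, the gene and strongest pseudogene of Rpl4 (a 60S protein), differed at 1. All 5 coding junctions of Rplp0 and all 3 of Rps6 were found in the pseudogene with at most 3 mismatches, and 7 of 8 for Rpl4. The submitters' processing notes name Bowtie2 and no other aligner. A read that lies within bases identical in both cannot be placed by its sequence in the gene or in the copy alone. The value of each gene with close pseudogenes is therefore uncertain as a measure of its own transcripts. How reads were shared between gene and pseudogene was not tested.

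The 83 genes made up a smaller share of the library total in apCAFs than in nonapCAFs. The share was 0.455%, 0.477% and 0.345% in apCAFs1, apCAFs2 and apCAFs3 and 0.565%, 0.540% and 0.561% in nonapCAFs4, nonapCAFs5 and nonapCAFs6, or 0.426% ± 0.0705 in apCAFs and 0.555% ± 0.0131 in nonapCAFs (SD, n = 3 each). Every apCAFs library lay below every nonapCAFs library, with apCAFs3 lowest; without it the apCAFs mean was 0.466%. The pseudogenes assigned to them took 3.92%, 4.17% and 3.16% of the total in apCAFs and 4.81%, 4.47% and 4.60% in nonapCAFs, in the same order of groups. Processed pseudogenes not assigned to any ribosomal protein gene took 9.14%, 9.35% and 7.56% in apCAFs and 10.7%, 10.5% and 10.6% in nonapCAFs, so a lower share in apCAFs was also measured outside the ribosomal protein sequences. Within the ribosomal protein sequences the genes held 10.4%, 10.3% and 9.85% in apCAFs and 10.5%, 10.8% and 10.9% in nonapCAFs. In bulk RNA a lower share of one class cannot be told apart from a higher share of others: the 9 fibroblast marker genes summed to 3.16%, 3.14% and 4.57% of the total in apCAFs and to 1.61%, 1.72% and 1.55% in nonapCAFs, and their part in the result was not tested. Fewer cells of a type and less RNA per cell cannot be told apart either.

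**Figure D1:**
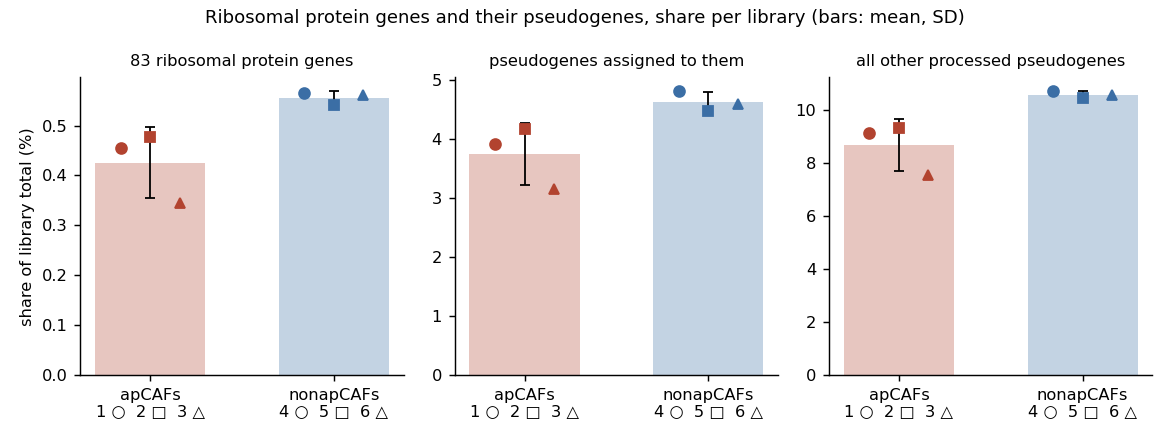
Share of the library total (%) held by the 83 ribosomal protein genes, by the 921 pseudogenes assigned to them and by all other processed pseudogenes, with apCAFs to the left and nonapCAFs to the right; symbols are libraries, bars the mean and error bars the SD (n = 3). The apCAFs libraries lie between 0.345% and 0.477% for the genes and the nonapCAFs libraries between 0.540% and 0.565%, and the 3 panels have different vertical scales.

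Markers of other cell types differed between the same libraries. Genes were called at an adjusted p under 0.05 (limma), which 3.91% of all genes tested met as higher in apCAFs and 0.486% as lower. The 12 alveolar type II genes summed to 117814, 99188 and 13247 in apCAFs and to 15734, 16496 and 14063 in nonapCAFs, with none of the 12 at 0 in all libraries and none called. In apCAFs3 this sum lay below that of each nonapCAFs library, and apCAFs3 was also the library with the lowest ribosomal protein share. The 9 mesothelial genes summed to 42396, 40331 and 51979 in apCAFs and to 5280, 5277 and 6001 in nonapCAFs, with 7 of 9 called higher and none at 0. The 12 epithelial genes summed to 21503, 19833 and 15167 in apCAFs and to 10989, 10339 and 7532 in nonapCAFs, with 3 called higher (Krt19, Cdh3 and Cldn3). The 18 leukocyte genes summed to 12071, 11689 and 4280 in apCAFs and to 2185, 3147 and 2302 in nonapCAFs, with none called, and the 8 endothelial genes to 3328, 3093 and 3971 in apCAFs and to 1517, 1490 and 1255 in nonapCAFs, with 1 called higher (Kdr). The lists are not separate: Lyz2 counts in both the alveolar type II and the leukocyte sum, and Krt19 in both the epithelial and the mesothelial sum. What part these cells have in the ribosomal protein values was not tested.

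Gene by gene, the difference was mostly small, with 74 of the 83 lower in apCAFs and 9 higher, and no ribosomal protein gene passed the test. Values were fitted as log2(value + 1) with limma over all 36443 genes above 0 in at least 1 library, and a gene was called at a Benjamini-Hochberg adjusted p under 0.05. Of all genes tested, 4.40% were called, 3.91% higher and 0.486% lower in apCAFs; of the 83, 0 were called, and the smallest adjusted p was 0.125 (limma). At an unadjusted p under 0.05, 12 of the 83 were lower and 1 was higher, where 6.19% of all genes were lower and 13.1% higher. These shares include genes of every level. In a fit of genes with a mean of at least 100 alone, 24 of the 80 were lower and 1 was higher at that p. Of all genes in that fit 15.0% were lower and 21.2% higher. The 12 depended on scaling and on single libraries: 29 were lower scaled to library totals, where 11.9% of all genes were lower, 35 quantile-normalized (13.5%) and 23 centred on the median (10.2%). Without apCAFs1 4 were lower (6.17% of all genes), without apCAFs2 10 (5.75%) and without apCAFs3 15 (7.16%). Without nonapCAFs4 it was 3 (4.12%), without nonapCAFs5 4 (3.78%) and without nonapCAFs6 6 (4.01%). The median log2 fold change was -0.24, against -0.04 over all genes tested; among genes with a mean of at least 100 it was -0.24 for the 80 ribosomal protein genes and -0.05 for all 17829. Of the 80, 73 (91.25%) were below 0, where 54.7% of the genes of that level were. All 3 apCAFs values lay below all 3 nonapCAFs values for 37 of the 80 and above them for 1, Rpl23; for genes of that level the shares were 25.9% below and 25.5% above. Without apCAFs3, 40 of the 80 lay below, where 30.4% of genes of that level lay below. Calls depended on the fit. With genes of a mean of at least 100 alone, 1 ribosomal protein gene was called higher (Rpl23) and 5 lower (Rps18, Rpl10a, Rpl12, Rpl3 and Rps28), where 13.0% of the genes were called higher and 2.41% lower. With a variance trend over all genes, Rpl23 was called higher and Rps18, Rpl10a, Rpl12, Rpl3 and Rpl13 lower, where 8.13% were called higher and 1.34% lower. With apCAFs1 and apCAFs2 averaged and nonapCAFs4 and nonapCAFs5 averaged, each close pair counted as 1 library, no gene of any kind was called by limma. At an unadjusted p under 0.05 (limma) there were then 4700 genes, 9.58% of all genes higher and 3.32% lower. Of the 83, 1 was higher and 0 were lower. DESeq2 adjusted p-values stand for 80 of the 83 in the authors' deposited table, with 17 lower and 1 higher at 0.05, where 9.77% of the 19255 genes with an adjusted p in that table are lower and 20.6% higher.

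**Figure D2:**
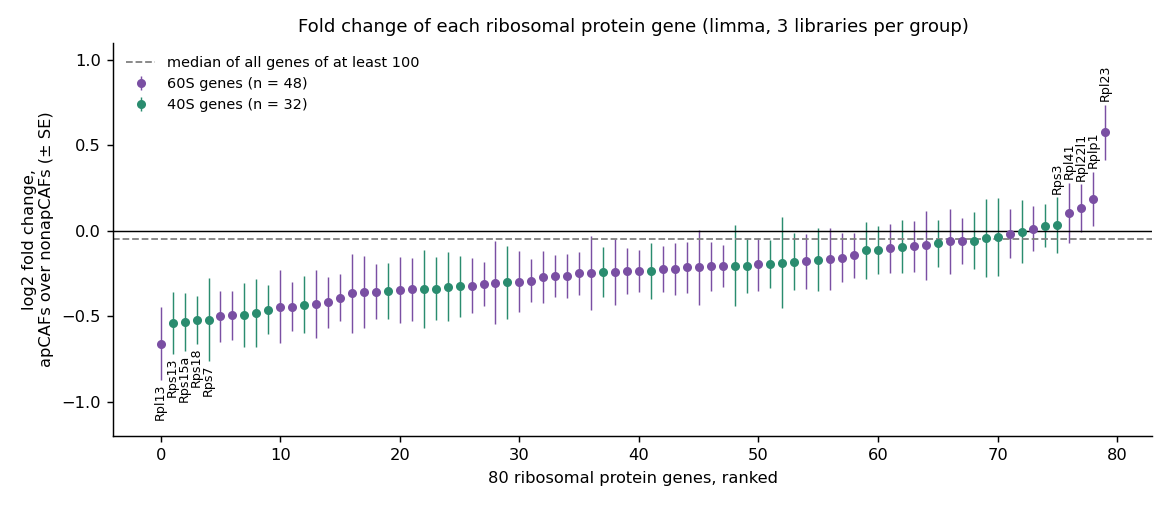
Log2 fold change of apCAFs over nonapCAFs for the 80 ribosomal protein genes with a mean of at least 100, ranked, with the standard error from limma; colours mark the subunit, the solid line is 0 and the dashed line the median of all genes of that level. The genes run from -0.66 (Rpl13) to 0.58 (Rpl23), and 73 lie below 0.

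The 2 subunits did not separate. The 48 genes of the 60S subunit had a median log2 fold change of -0.24, with 43 below 0, and the 32 of the 40S subunit a median of -0.22, with 30 below 0. The log2 ratio of the summed 40S to the summed 60S values was -0.95, -0.98 and -0.91 in apCAFs and -0.95, -0.93 and -1.02 in nonapCAFs, so the groups overlapped.

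Among the 60S genes with a mean of at least 100 the lowest log2 fold change was that of Rpl13 (chr8:123102350-123105244 in GRCm38), a protein whose human variants cause a skeletal dysplasia. It had 3314, 3270 and 2180 in apCAFs and 4541, 4262 and 4835 in nonapCAFs. The groups did not overlap, and the log2 fold change was -0.66 ± 0.21 (SE) with an adjusted p of 0.185 (limma). Rpl12, which sits at the base of the stalk, had 4819, 5218 and 4183 in apCAFs and 6651, 6671 and 6639 in nonapCAFs, nearly equal within nonapCAFs, with a log2 fold change of -0.50 ± 0.14 (SE) and an adjusted p of 0.150 (limma). Rpl10a, a protein of the mobile L1 arm beside the exit site, had 8604, 8718 and 8482 in apCAFs and 11166, 11598 and 13938 in nonapCAFs. Rpl3, a protein near the peptidyl transferase centre, had 4860, 4987 and 4276 in apCAFs and 6116, 6169 and 6931 in nonapCAFs. For these 2 genes the groups were also apart, with adjusted p-values of 0.152 for Rpl10a and 0.182 for Rpl3 (limma), and the authors' deposited table has both lower, at adjusted p-values of 0.000288 and 0.00104. Rpl12, Rpl10a and Rpl3 are named after their values were seen.

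Rpl8, a protein of the subunit's core, was the most abundant of the 83 and almost free of pseudogene signal, since its 1 pseudogene averaged 33.7. It had 98588, 104610 and 63912 in apCAFs and 118585, 110372 and 107960 in nonapCAFs. The groups did not overlap, but apCAFs3 lay far below the other apCAFs libraries, and the log2 fold change was -0.37 ± 0.23 (SE) with an adjusted p of 0.426 (limma). Rpl29, a small basic protein of the 60S surface, had 27409, 28675 and 22618 in apCAFs and 31701, 29726 and 29896 in nonapCAFs, again with no overlap and an adjusted p of 0.469 (limma). Rpl41, the shortest ribosomal protein, had 18352, 19831 and 14805 in apCAFs and 18112, 15679 and 15244 in nonapCAFs, and the groups overlapped. Rplp1, a stalk protein that pairs with Rplp2, had 4186, 4431 and 3486 in apCAFs and 3825, 3463 and 3317 in nonapCAFs, also overlapping. Rplp2 itself had 836, 725 and 677 in apCAFs and 837, 980 and 1220 in nonapCAFs, with a log2 fold change of -0.43 ± 0.20 (SE) and an adjusted p of 0.302 (limma); its highest apCAFs value lay 1 unit below its lowest nonapCAFs value.

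Rpl23 (chr11:97777527-97782437), a 60S protein known for binding MDM2 when ribosome assembly is disturbed, was the 1 gene of the 80 above its range in nonapCAFs. It had 3522, 3820 and 4694 in apCAFs and 2736, 2641 and 2642 in nonapCAFs, a log2 fold change of 0.58 ± 0.16 (SE) with an adjusted p of 0.136 (limma). Its highest value was in apCAFs3, the library in which 55 of the 80 genes had their lowest. The authors' deposited table has Rpl23 higher, at an adjusted p of 0.00045. Its 1 assigned pseudogene, Gm9794, had 48071, 51173 and 47199 in apCAFs and 53338, 48480 and 46536 in nonapCAFs, which overlap. Gene and pseudogene together gave a log2 fold change of 0.02 ± 0.13 (SE). The gene itself held 6.37% of that sum. Rpl5 and Rpl11, which bind MDM2 with 5S ribosomal RNA, did not share this order: Rpl5 had 2253, 2503 and 2305 in apCAFs and 2712, 2718 and 3450 in nonapCAFs, and Rpl11 had 1069, 1216 and 1137 in apCAFs and 1099, 1106 and 1188 in nonapCAFs. Rpl5 and Rpl11 are named after their values were seen.

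**Figure D3:**
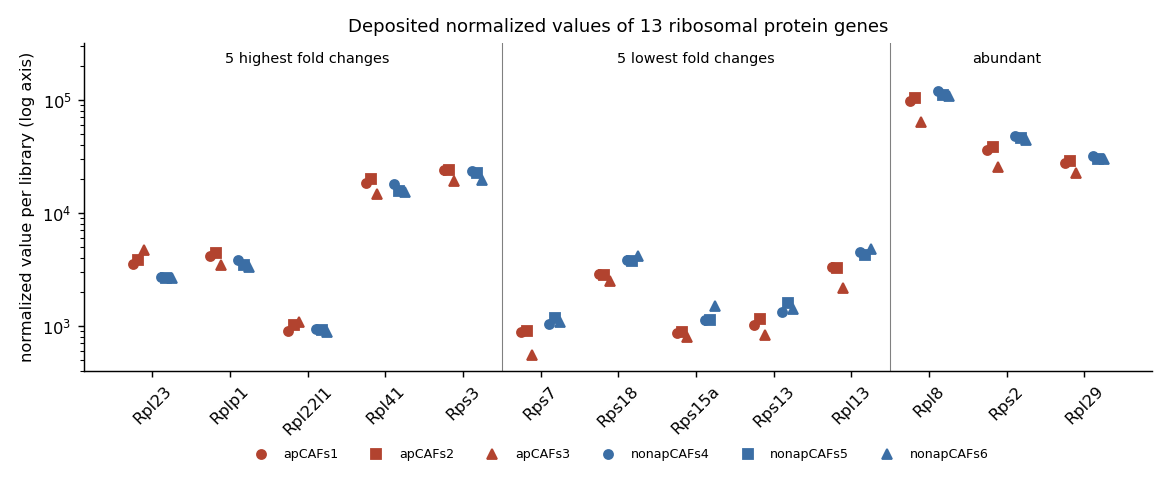
Deposited normalized values (log axis) of the 5 ribosomal protein genes with the highest and the 5 with the lowest log2 fold change and of abundant ones not among them (all with a mean of at least 100), with apCAFs left of nonapCAFs for each gene; each symbol is 1 library. For Rps18, Rps15a, Rps13, Rps7 and Rpl13 the 3 apCAFs libraries lie below all nonapCAFs libraries, and for Rpl23 above them.

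In the 40S subunit the lowest log2 fold changes were those of Rps13, Rps15a, Rps18 and Rps7. Rps18 (chr17:33951999-33956001), a protein of the head of the subunit, had the smallest p of the 83: 2907, 2826 and 2480 in apCAFs and 3865, 3740 and 4192 in nonapCAFs, a log2 fold change of -0.52 ± 0.14 (SE) with an unadjusted p of 0.0121 and an adjusted p of 0.125 (limma). Rps13, which binds the central domain of the 18S RNA, had 1019, 1146 and 824 in apCAFs and 1331, 1584 and 1407 in nonapCAFs. Rps15a, a further protein of that domain, had 874, 888 and 803 in apCAFs and 1135, 1122 and 1488 in nonapCAFs. Both were without overlap, with log2 fold changes of -0.54 and -0.53 and adjusted p-values of 0.198 for Rps13 and 0.181 for Rps15a (limma). Rps7, a 40S protein also known to bind MDM2, had 892, 906 and 551 in apCAFs and 1031, 1170 and 1089 in nonapCAFs, with a log2 fold change of -0.52 ± 0.24 (SE) and an adjusted p of 0.304 (limma). In all 4 genes every apCAFs value lay below every nonapCAFs value, with apCAFs3 lowest. Rps18, like Rpl3, Rpl10a, Rpl12, Rpl13 and Rps2, overlaps another annotated gene, and the strand setting of the counting is not given in the sources used here, so these values could hold reads of that other gene.

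Abundant 40S genes showed both patterns. Rps2, a protein of the mRNA entry channel, had 36336, 37979 and 25420 in apCAFs and 47368, 45774 and 43957 in nonapCAFs, with a log2 fold change of -0.48 ± 0.20 (SE) and an adjusted p of 0.279 (limma). Rps3, a protein of the entry channel with a known role in DNA repair, had 23799, 23911 and 19202 in apCAFs and 23456, 22303 and 19601 in nonapCAFs. The groups were apart for Rps2 and overlapped for Rps3, whose log2 fold change was 0.03 ± 0.16 (SE). Rpl8, Rplp2 and Rpl41, which held over 50% of their own family, had log2 fold changes of -0.37, -0.43 and 0.10. Over all 4 genes that did so the median was -0.21, with 3 below 0.

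When each gene was summed with its pseudogenes the differences became smaller. The 80 families had a median log2 fold change of -0.13, with 68 below 0, against -0.24 and 73 for the genes alone; 0 were called and 0 had an unadjusted p under 0.05 (limma over 35556 genes, of which 4.07% were called higher and 0.498% lower). The groups did not overlap for 15 of the 80 families with apCAFs lower and for 2 with apCAFs higher, where 25.9% of all features of that level in the summed table lay lower and 25.9% higher, so neither count stood above the background. The order of genes also moved. Rps13 had a family sum of 22106, 23891 and 20457 in apCAFs and 25012, 22611 and 22141 in nonapCAFs, which overlap, and a log2 fold change of -0.07 ± 0.14 (SE). Rpl13 kept its place among the lowest, with 142833, 149213 and 98936 in apCAFs and 180498, 162134 and 171412 in nonapCAFs and a log2 fold change of -0.42 ± 0.21 (SE). Rps18 had 24185, 25841 and 18016 in apCAFs and 31371, 30092 and 27716 in nonapCAFs, a log2 fold change of -0.41 ± 0.19 (SE). The family of Rpl39, a 60S protein of the exit tunnel, had the highest value of the 80, 0.27 ± 0.13 (SE), where the gene alone had -0.16 ± 0.15 (SE). Of the pseudogenes themselves, 280 had a mean of at least 100; 225 of these were below 0, their median log2 fold change was -0.13, and 0 were called. This summing was chosen after the data were seen.

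**Figure D4:**
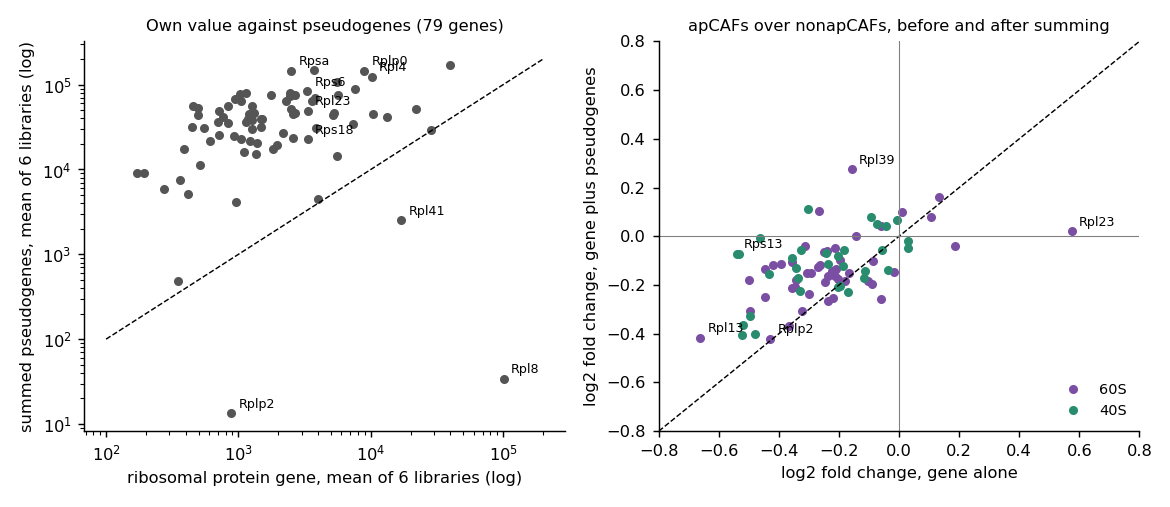
Left, mean value of each ribosomal protein gene over the 6 libraries against the summed mean of its assigned pseudogenes (both log axes, 79 genes with a mean of at least 100 and an assigned pseudogene); the dashed line marks equal values, and most genes lie above it, with Rpl8, Rplp2 and Rpl41 below. Right, log2 fold change of apCAFs over nonapCAFs for the gene alone and for gene plus pseudogenes (80 genes), with the dashed line where both are equal; Rpl23 has 0.58 alone and 0.02 summed, and the summed values span -0.42 to 0.27.

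Subunit proteins enter the ribosome mostly as 1 copy each, but the listed levels were far from equal. Per kilobase of transcript, the mean value over the 6 libraries ran from 203.1 for Rps15a to 118297 for Rpl8 among the 80 genes, and the SD of the log2 level per kilobase was 1.71. With pseudogenes added it was 1.35, and the level per kilobase ran from 926 (Rplp2) to 193382 (Rpl13). The 5 most abundant genes, among them Rpl8, Rps2, Rpl29 and Rps3, held 53.1% of the summed value of the 83. Across genes, the level per kilobase had a Spearman correlation of 0.079 with the percentage of a gene's 50-base runs found in no other gene's transcript. The log2 fold change had one of -0.01 with the percentage of the family value held by the gene. These are descriptions over 80 genes of the same 6 libraries, which are not independent replicates.

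Paralogues with tissue-restricted use were near absent. Rpl3l, the striated-muscle form of Rpl3, was listed at 2, 2 and 3 in apCAFs and at 19, 3 and 3 in nonapCAFs. Rpl39l, known from testis, was listed at 0, 7 and 8 in apCAFs and at 0 in all 3 nonapCAFs libraries. Rpl10l, also known from testis, was listed at 0, 0 and 5 in apCAFs and at 0, 0 and 2 in nonapCAFs. No fold is given for values this low. For the 4 pairs of paralogue and parent with a mean of at least 10 in both, the log2 ratio within a library does not depend on scaling between libraries. Rpl22l1 had 903, 1029 and 1094 in apCAFs and 943, 918 and 893 in nonapCAFs, and its log2 ratio to Rpl22 was -2.64, -2.44 and -1.85 in apCAFs and -2.81, -2.77 and -2.49 in nonapCAFs. The groups overlapped, with a difference of 0.38 and an exact two-sided permutation p of 0.2, adjusted over the 4 pairs to 0.6. For Rps27l and Rps27 the difference was -0.16 (exact permutation p of 0.7), and it was 0.11 without apCAFs3. For Rpl7l1 and Rpl7 it was 0.11 (exact permutation p of 0.6), and for Rpl36al and Rpl36a 0.19 (exact permutation p of 0.3); all 4 pairs overlapped between groups. With 3 libraries against 3 the smallest p this test can give is 0.1, so it could not reach 0.05.

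The genes share features that the naming rule did not use. Promoter windows of 250 bases before to 50 after an annotated start were found for 60 of the 80 genes in RefSeq (GRCm38.p6), with 71 windows in all, beside 32851 windows of all genes. A start at C followed by 4 or more pyrimidines, the mark of terminal oligopyrimidine mRNAs whose translation follows mTORC1 through LARP1, was found in 18.3% of the windows, against 2.51% of all windows. The longest pyrimidine run within 25 bases of the start had a median of 7 bases, against 5. CCGGAA, the core that ETS factors bind, was found on either strand in 49.3%, against 14.9%, GGGCGG on either strand in 62.0%, against 35.7%, and AGATGG, within the YY1 motif, on either strand in 21.1%, against 18.6%. TATAAA on either strand was found in 9.86%, against 13.6%. A match is a description of the letters and says nothing of a factor's binding. The 100 bases from 80 before to 20 after the start are given 5′ to 3′ for 2 genes of the 40S and 2 of the 60S subunit that differ in this feature, Rps18 with the smallest p, Rps6, Rpl15 with a long run, and Rpl23, the gene that stood apart; capitals mark the pyrimidine run at the annotated start, and Rpl23 has none there.
Rps18 (chr17:33955646-33955745, minus strand): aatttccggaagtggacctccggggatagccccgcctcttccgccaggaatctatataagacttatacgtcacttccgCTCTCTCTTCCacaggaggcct
Rps6 (chr4:86857348-86857447, minus strand): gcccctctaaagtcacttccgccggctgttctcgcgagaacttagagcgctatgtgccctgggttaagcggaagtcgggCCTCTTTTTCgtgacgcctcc
Rpl15 (chr14:18270967-18271066, minus strand): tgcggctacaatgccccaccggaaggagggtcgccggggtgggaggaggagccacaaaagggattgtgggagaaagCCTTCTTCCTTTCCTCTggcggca
Rpl23 (chr11:97782420-97782519, minus strand): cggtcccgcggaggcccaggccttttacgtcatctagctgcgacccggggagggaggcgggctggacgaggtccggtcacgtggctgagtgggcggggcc
The runs are 11 bases long in Rps18, 10 in Rps6 and 17 in Rpl15. Rps18 had a log2 fold change of -0.52, Rps6 of -0.17 and Rpl15 of -0.02. Of the 60 genes with a window, all 13 with a start at C followed by 4 or more pyrimidines were below 0, with a median of -0.27. Of the 47 others 41 were, with a median of -0.24. The others include genes with a long pyrimidine run across a start base that is not C, such as Rpl7a (21 bases) and Rpl27a (20 bases). They also include genes with a run near the annotated start but not at it, such as Rpl13a, Rpl4 and Rps25 (14 bases each). The count of starts with this feature thus depends on the exact annotated base.

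The 83 genes lie on 19 chromosomes, with 14 on chromosome 7 and 8 on chromosome 17. Introns of 30 of the 80 genes hold small nucleolar RNAs, which guide modification of ribosomal RNA. The 30 hosts had a median log2 fold change of -0.23, with 28 below 0, and the 50 others a median of -0.24, with 45 below 0. In the annotation 29 of the 83 overlap a gene other than a small nucleolar RNA.

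The naming rule leaves out some ribosomal protein genes, of which Fau and Rpl36al are given here. Fau, a fusion gene that yields the 40S protein eS30, had 622, 566 and 423 in apCAFs and 799, 799 and 804 in nonapCAFs, a log2 fold change of -0.59 ± 0.19 (SE) with an adjusted p of 0.177 (limma). Rpl36al had 4386, 4816 and 3786 in apCAFs and 5067, 4202 and 4432 in nonapCAFs. The groups were apart for Fau and overlapped for Rpl36al, and neither gene was called.

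The rest of the translation machinery was measured in the same fit, and none of its genes was called either. All 40 ribosome assembly factors, which process ribosomal RNA and build the subunits in the nucleolus, had log2 fold changes below 0, from -0.93 to -0.06, with a median of -0.40. Of these 40, 19 had an unadjusted p under 0.05, where 6.19% of all genes were lower. All 40 had a mean of at least 100. In the separate fit of genes of that level alone, 15.0% of all genes were lower at that p. For 34 of the 40, apCAFs lay below nonapCAFs without overlap (25.9% of genes with a mean of at least 100). The authors' deposited table has 24 lower and 0 higher, where 9.77% of its genes are lower and 20.6% higher. Ncl, nucleolin, had 47032, 47999 and 25855 in apCAFs and 58596, 57017 and 53062 in nonapCAFs. Mybbp1a, a nucleolar protein of ribosomal RNA processing, had 20808, 18847 and 14348 in apCAFs and 25790, 25968 and 25300 in nonapCAFs. Mdn1, the AAA ATPase that remodels pre-60S particles, had the smallest p of the list, with 3361, 3666 and 2610 in apCAFs, 5341, 6643 and 6326 in nonapCAFs and an adjusted p of 0.0679 (limma); it is named after its values were seen. The groups were apart for all 3 genes, and 36 of the 40 had their lowest value in apCAFs3.

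Of the 30 initiation factors, 27 were below 0, with a median log2 fold change of -0.21. At an unadjusted p under 0.05, 1 was lower (6.19% of all genes, and 15.0% in the fit of genes with a mean of at least 100 alone). Eif4g1, the scaffold of the cap-binding complex, had 68619, 66748 and 50569 in apCAFs and 80239, 80471 and 74480 in nonapCAFs. Of the 9 elongation factors 8 were below 0, with a median of -0.23. Eef1a1, which delivers aminoacyl-tRNA to the ribosome, had 156067, 167464 and 123483 in apCAFs and 185602, 179641 and 155857 in nonapCAFs, which overlap. Of the 13 genes of ribosome rescue and quality control found (of 16 listed) 10 were below 0, with a median of -0.38. Rack1, a scaffold protein on the 40S subunit, had 76496, 81943 and 65798 in apCAFs and 91897, 85584 and 75884 in nonapCAFs, also overlapping. Of the 25 genes of RNA polymerases I and III and their factors 21 were below 0, with a median of -0.24. At an unadjusted p under 0.05, 7 were lower (6.19% of all genes, and 15.0% in the fit of genes with a mean of at least 100 alone). Of the 22 genes of mTORC1, LARP1 and MYC control 15 were below 0, with a median of -0.23. Myc, a transcription factor known to drive ribosomal protein and assembly genes, had 60600, 57525 and 14571 in apCAFs and 84159, 84279 and 36918 in nonapCAFs. Its lowest value of each group was in apCAFs3 and nonapCAFs6, the groups overlapped, and its log2 fold change was -0.79 ± 0.69 (SE) with an adjusted p of 0.518 (limma).

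**Figure D5:**
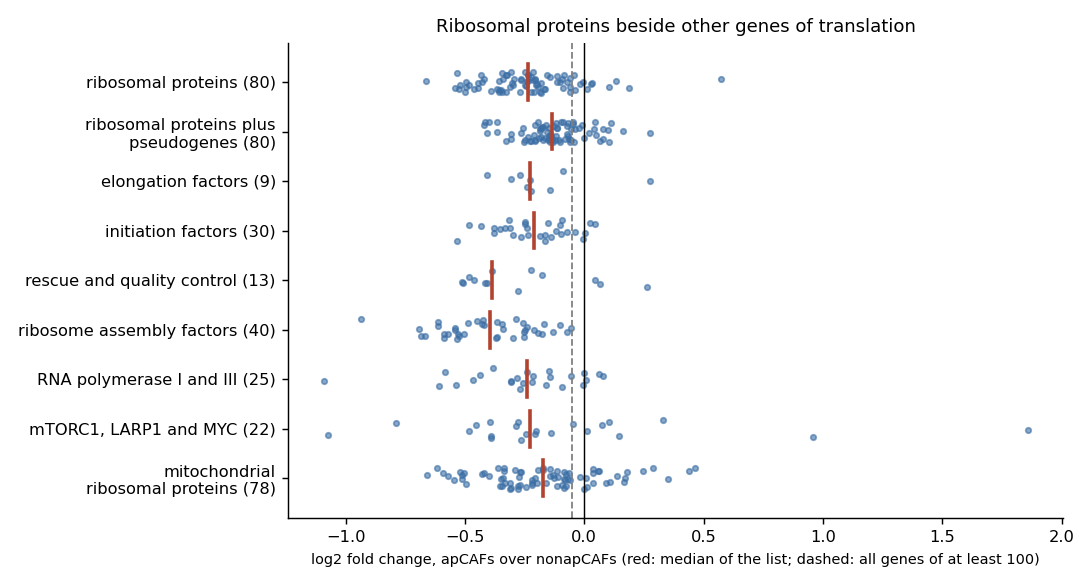
Log2 fold change of apCAFs over nonapCAFs for the 80 ribosomal protein genes, alone and summed with pseudogenes, and for the other lists of translation genes; each point is 1 gene, the red mark the median of its list and the dashed line the median of all genes with a mean of at least 100. The assembly factors lie at a median of -0.40 with all 40 below 0, and the ribosomal proteins at -0.24.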

How the data were processed

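RNA of sorted cells was sequenced by the submitters; the labels' protocols give a Norgen kit for RNA and a NEB Next Ultra kit for libraries. Per the submitters' processing notes, Trim Galore, Bowtie2, DESeq2 and the mm10 build were used, without roles or versions; neither the counter nor the annotation nor the strand setting is given in the sources used here. Per the file headers the values per library are normalized counts, deposited by the authors as whole numbers and treated here as a score, so no count model was run and no depth or counting interval can be given. The authors' deposited table also holds a DESeq2 p-value and adjusted p-value, a fold ratio of group means and its log2 for each gene; it is used where named.

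Genes above 0 in at least 1 library (36443 of 55298) were fitted as log2(value + 1) with limma 3.58.1 in R 4.3.3, with group as the single term, no variance trend, Benjamini-Hochberg adjustment over all genes and a threshold of 0.05 (two-sided). Fold changes on this scale understate those of low genes. Ratios of paralogues were tested by exact permutation (scipy 1.17.1, Python 3.11.15). The script was tested on simulated data. Pseudogenes were matched to genes through GENCODE M21 transcripts (55117 of the identifiers found), by name or by at least 20 shared runs of 50 bases. Genes named are the 5 highest, 5 lowest and 5 most abundant, paralogues with their parents, and the most abundant of each other list; others are marked where they appear, and some genes under this rule are not reported here. The members and lists were chosen with earlier results of these data known. Alternatives were other scalings, pseudocounts (0.5 and 5), filters (mean of 10 and 100), a variance trend, leaving out each library, averaging close pairs and an experiment term.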

Additional observations from a re-analysis of the deposited data

How the results depend on the processing

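No ribosomal protein gene was called as reported; 14 of 1903 single-gene values, for 8 genes, gained a call. Of the ribosomal protein genes fitted (83, or 80 with a mean of at least 10 or 100), 74 were below 0 as reported and 69 to 79 under the alternatives. Ribosomal protein genes called, 0 higher and 0 lower as reported, were 1 lower (Rps18) with genes of a mean of at least 10, 1 higher (Rpl23) and 5 lower both with a mean of at least 100 and with a variance trend, and 1 higher and 17 lower in the authors' deposited DESeq2 table; leaving out 1 library gave 0 to 1 higher (Rpl39l, without apCAFs1) and 0 lower. The median log2 fold change, -0.24 as reported, was -0.39 scaled to library totals and -0.40 quantile-normalized, where the median of all genes was -0.18 and -0.19; the gap between them was -0.20, -0.20 and -0.22 in the 3 scalings. The ribosomal protein median ran from -0.29 to -0.18 leaving out 1 library, -0.18 without apCAFs3. Its gap to the median of all genes ran from -0.23 (without apCAFs2) to -0.15 (without apCAFs3). With assigned pseudogenes summed the gap was -0.10. All genes called, 1602 as reported, were 2465 and 2748 with means of at least 10 and 100, 3453 with a variance trend, 5842 in the authors' deposited DESeq2 table and 310 to 1791 leaving out 1 library. With close pairs averaged 0 were called, and 4700 genes had an unadjusted p under 0.05 (limma). Of all genes 9.58% were then higher and 3.32% lower at that level, and of the ribosomal protein genes 1 was higher and 0 were lower. The difference in share of the library total, apCAFs minus nonapCAFs, -0.130 percentage points as reported, was -0.479 with pseudogenes named for ribosomal proteins and -1.004 with all assigned pseudogenes, and -0.155 to -0.0893 leaving out 1 library. No paired analysis was possible because the groups share no replicate number and the labels do not say which libraries share an experiment; an experiment term under each of the 6 possible pairings called 0 genes (limma; 5316 to 6680 at an unadjusted p under 0.05, 1 to 7 of them ribosomal protein genes). The cause of these differences was not tested. Depth is unknown, so its limit on low genes is too.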

Other observations

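The mitochondrial ribosome is built from a separate set of nuclear genes. Of its 78 genes 60 had a log2 fold change below 0, with a median of -0.17, and 0 were called by limma. At an unadjusted p under 0.05, 7 were lower and 2 higher, where 6.19% of all genes were lower and 13.1% higher. In the separate fit of genes with a mean of at least 100 alone these shares were 15.0% and 21.2%. The authors' deposited table has 10 lower and 2 higher, where 9.77% of its genes are lower and 20.6% higher. Mrpl38 had 4758, 4731 and 4672 in apCAFs and 5708, 5531 and 5846 in nonapCAFs, with no overlap. Mrpl24 had 4600, 5382 and 5611 in apCAFs and 4989, 5092 and 5051 in nonapCAFs, which overlap. The summed value of the 78 genes was 0.169%, 0.177% and 0.149% of the library total in apCAFs and 0.205%, 0.198% and 0.219% in nonapCAFs, so the groups lay in the same order as for the cytosolic genes, with apCAFs3 lowest.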
